A study of Mus musculus with 39 samples.

Results

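The nuclear factor I genes of the mouse, Nfia, Nfib, Nfic and Nfix, were described by the places where RBPJ or Notch had been called near them in the developing cortex. Members were chosen by position: a called region was counted to a gene when the nearest start site of any protein-coding gene, on mm10, was one of its own. By this rule 48 of 20809 nuclear consensus peaks belonged to the 4 genes, 29 of them to Nfib, 15 to Nfia, 3 to Nfix and 1 to Nfic. The same genes held 66 of the 25453 nuclear peaks in the 4 lists from which the consensus had been merged. The family was selected on these calls, since Nfib had more IPC RBPJ peaks than any other gene, so all counts below describe the family and none was tested.

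The data come from targeted DamID (TaDa), in which a Dam methylase fused to a protein marks GATC sequences close to where the fusion sits. Plasmids were electroporated into the cortex of wild-type MF1 embryos at E13.5 and the electroporated tissue was dissected at E14.5. Expression was driven by the Hes5 promoter in radial glial cells (RGCs, the neural stem cells of the cortex) or by the Tα1 promoter in intermediate progenitor cells (IPCs, their dividing daughters), so the cell type rests on the promoter. RGC RBPJ and IPC RBPJ stand on 3 samples each and carried Dam fused to human RBPJ. RGC Notch stands on 4 samples, 2 with the construct labelled NdECD and 2 with NICD, the intracellular domain of Notch. IPC Notch stands on 4 samples, all with NICD, so for Notch the cell type and the construct cannot be told apart. Controls carried untethered Dam under the same promoter (5 RGC samples, 4 IPC samples), and RBPJ and Notch of a cell type share them. For 1 of the 5 RGC controls the labels do not name the RBPJ and Notch profiles that they name for the others, so its use for the RGC lists is not certain. Each deposited list is 1 set of positions per cell type and protein without heights or values for single samples, so there is no spread between replicates and no depth to report. Intervals given with shares are Wilson 95% intervals and cover counting error over peaks only. The labelled cell types could not be checked against marker genes, because positions carry no expression.

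Nuclear factor I proteins are transcription factors that bind DNA as dimers at a split palindrome of TTGGC and GCCAA. In the embryonic cortex Nfia, Nfib and Nfix act in radial glia in the passage from making neurons to making glia, and Nfia has been described as a factor through which Notch signalling makes neural precursors competent to form astrocytes. Nfic is best known for its part in tooth root formation. RBPJ is the DNA-binding partner of the Notch intracellular domain, and the core of its binding sequence reads TTCCCA.

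Sequences are shown first for the peaks over or beside start sites and for the peaks on which most of the results turn. Each stretch is 200 bases of the plus strand of mm10 (GRCm38), lies within the named peak outside all annotated exons, and had as many TTCCCA words as any such stretch in the part shared by the peaks called there or, for the internal start of Nfib, in the IPC RBPJ peak. Capitals mark TTCCCA or, for the other strand, TGGGAA. For Nfib, the first sequence is from the peak over the distal start site, the second from the widest IPC RBPJ peak, in an intron, the third from an IPC RBPJ peak without a GATC, and the last pair from both peaks called in 3 lists. The fourth stretch lies in the RGC RBPJ and IPC RBPJ peaks there, and the fifth in the IPC RBPJ peak only.
Nfib distal start chr4:82705245-82705444: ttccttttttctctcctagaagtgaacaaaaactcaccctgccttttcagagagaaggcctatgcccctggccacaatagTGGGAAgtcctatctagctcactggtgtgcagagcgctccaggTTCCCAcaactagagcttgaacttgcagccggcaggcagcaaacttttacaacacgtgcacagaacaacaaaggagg
Nfib widest IPC RBPJ peak chr4:82533509-82533708: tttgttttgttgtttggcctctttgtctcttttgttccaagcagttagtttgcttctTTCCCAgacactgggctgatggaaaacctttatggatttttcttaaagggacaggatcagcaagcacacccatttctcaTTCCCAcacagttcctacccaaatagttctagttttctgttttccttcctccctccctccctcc
Nfib GATC-free IPC RBPJ peak chr4:82663830-82664029: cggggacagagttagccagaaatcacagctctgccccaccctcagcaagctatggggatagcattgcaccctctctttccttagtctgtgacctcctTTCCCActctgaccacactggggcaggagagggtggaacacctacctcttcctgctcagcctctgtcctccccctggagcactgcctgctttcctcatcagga
Nfib peak upstream of the main starts chr4:82511783-82511982: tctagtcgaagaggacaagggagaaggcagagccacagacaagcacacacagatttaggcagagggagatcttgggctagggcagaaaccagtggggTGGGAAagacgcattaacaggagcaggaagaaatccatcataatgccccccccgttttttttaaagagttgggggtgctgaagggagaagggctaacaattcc
Nfib peak over the internal start chr4:82494629-82494828: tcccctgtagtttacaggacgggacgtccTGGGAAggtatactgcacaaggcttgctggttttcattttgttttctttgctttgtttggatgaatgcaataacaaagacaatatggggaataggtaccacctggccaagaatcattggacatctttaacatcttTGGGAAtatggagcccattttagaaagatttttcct

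For Nfia, the first sequence is from the peak over the outermost start site and lies in the RGC RBPJ, IPC RBPJ and IPC Notch peaks alike. The second is from the widest Nfia peak, called for RGC RBPJ alone. For Nfix and Nfic, the sequences are from the only IPC RBPJ peak of each gene.
Nfia start peak chr4:97775811-97776010: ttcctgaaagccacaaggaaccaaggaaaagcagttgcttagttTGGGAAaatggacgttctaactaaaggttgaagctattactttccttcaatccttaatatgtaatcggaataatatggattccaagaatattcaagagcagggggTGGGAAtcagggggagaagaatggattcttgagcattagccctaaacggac
Nfia widest peak chr4:97949310-97949509: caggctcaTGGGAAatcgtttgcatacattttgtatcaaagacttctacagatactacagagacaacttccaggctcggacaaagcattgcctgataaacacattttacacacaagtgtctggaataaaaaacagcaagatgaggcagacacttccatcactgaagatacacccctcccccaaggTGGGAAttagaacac
Nfix start peak chr8:84770360-84770559: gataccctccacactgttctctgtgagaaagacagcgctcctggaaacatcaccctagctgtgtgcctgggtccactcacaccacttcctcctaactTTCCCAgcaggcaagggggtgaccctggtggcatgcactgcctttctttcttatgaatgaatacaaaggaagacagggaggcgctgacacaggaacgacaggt
Nfic peak chr10:81407254-81407453: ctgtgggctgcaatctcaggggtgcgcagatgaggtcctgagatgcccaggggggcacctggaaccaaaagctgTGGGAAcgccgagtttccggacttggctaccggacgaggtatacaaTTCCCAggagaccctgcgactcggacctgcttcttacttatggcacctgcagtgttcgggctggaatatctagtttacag

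Nfib and Nfia carried many peaks and Nfix and Nfic few. In the RGC RBPJ list, 17 peaks were nearest to Nfib, 12 to Nfia, 2 to Nfix and 0 to Nfic. In the RGC Notch list the counts were 9, 1, 0 and 0 in the same order. In the IPC RBPJ list they were 16, 3, 1 and 1, and in the IPC Notch list 2, 2, 0 and 0. Nfib therefore had nearly as many RBPJ peaks in IPCs as in RGCs, but it was chosen for its IPC RBPJ count. Of the 15 RBPJ peaks of Nfia, 12 were from RGCs. Over all genes RGCs also had more, 14097 RBPJ peaks against 5497 in IPCs, so nothing is read from either comparison. When only the outermost start of each gene was used, Nfia had 4 RGC RBPJ and 6 IPC RBPJ peaks, but these were largely other peaks. The peaks in the introns of Nfia then lay nearer to the start of a neighbour, mostly E130114P18Rik, than to that of Nfia. Peaks upstream of the gene were counted to Nfia instead. The median count was 1 peak per gene in each list among genes with any peak. Of 21938 protein-coding genes, 30.9% had at least 1 peak for RGC RBPJ and 11.5% for RGC Notch. In IPCs the shares were 16.1% for RBPJ and 6.92% for Notch.

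**Figure D1:**
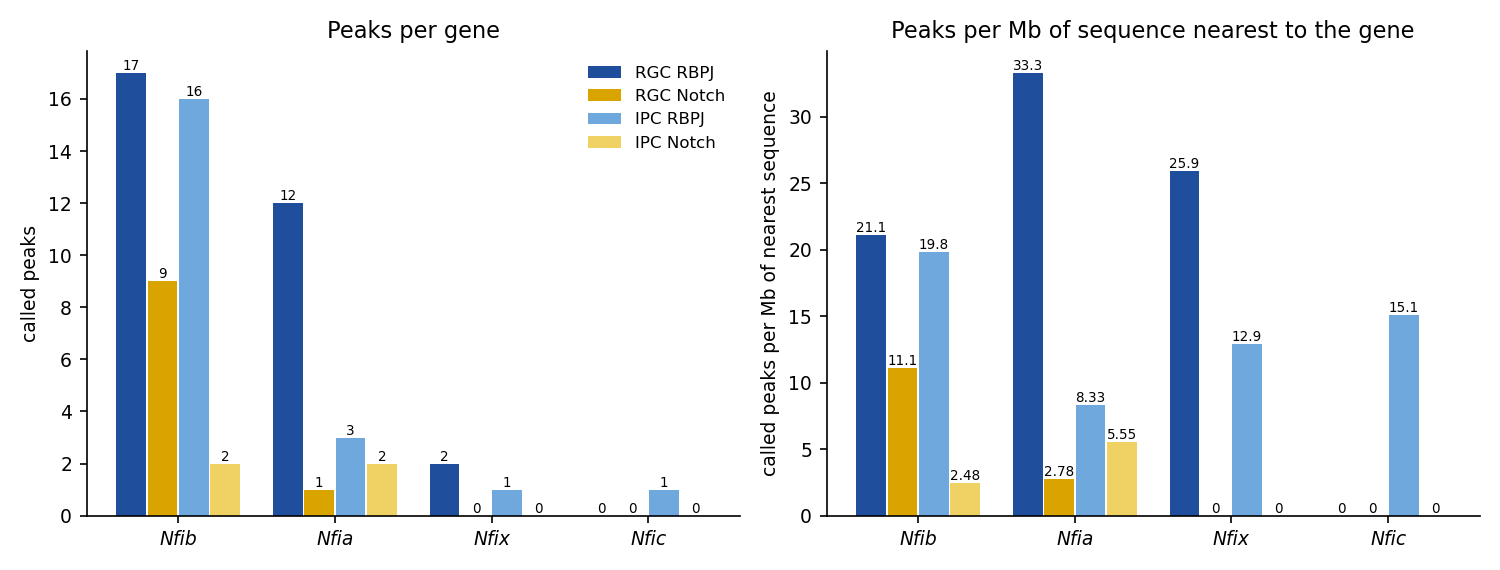
Bars give the called peaks of each list at the 4 genes as a count (left) and per Mb of the sequence that lies nearest to a start site of the gene (right). Nfib has 17, 9, 16 and 2 peaks and Nfia 12, 1, 3 and 2, while per Mb the RGC RBPJ bar of Nfia (33.3) is above that of Nfib (21.1).

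In the order of genes by IPC RBPJ peaks, Nfib came first with 16 peaks, followed by Zfp608 with 14 and by Auts2 and Adgrl2 with 11 each. This order rests on the start sites of protein-coding genes: with those of all annotated genes, noncoding ones included, Nfib had 3 IPC RBPJ peaks and 3 consensus peaks and ranked 69. Nfib was also first by the bases that these peaks cover, 30.4 kb. The gene has much sequence to itself: 0.807 Mb lay nearer to an Nfib start than to that of any other protein-coding gene, against a median of 0.0451 Mb per gene. Per Mb of this sequence Nfib had 19.8 IPC RBPJ peaks against 2.02 over the nuclear genome. Among the 115 genes with at least 5 IPC RBPJ peaks it then ranked 9, with Prdm16 highest at 27.5 per Mb and a median of 8.7. In the RGC lists Nfib was 14 among genes by RBPJ peaks and 8 by Notch peaks. By IPC Notch it was among the 222 genes with 2 peaks, as was Nfia.

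**Figure D2:**
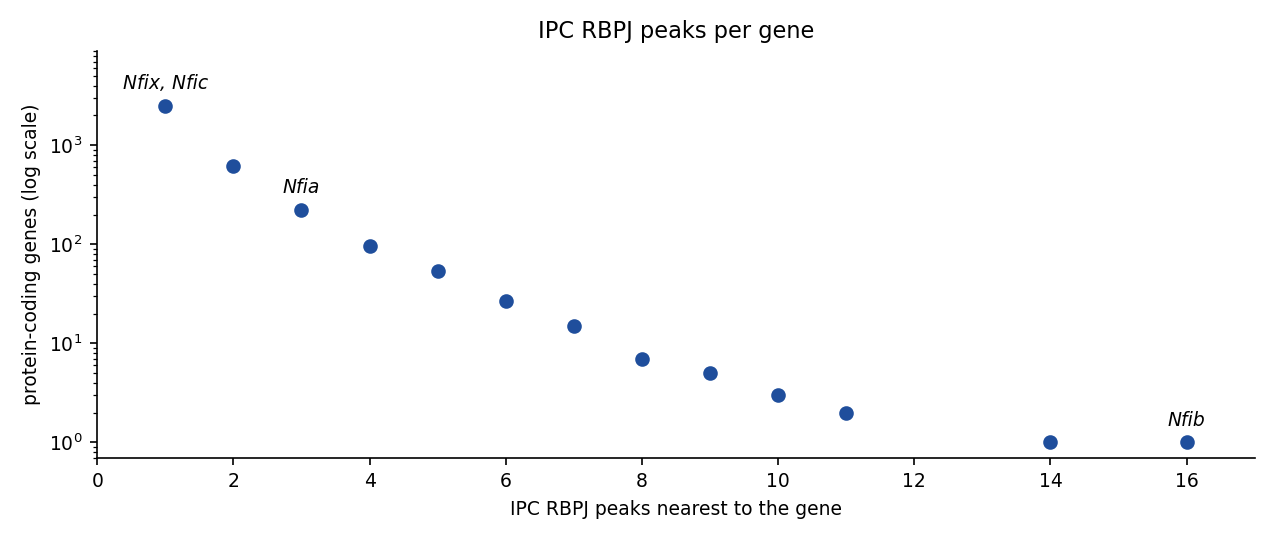
Each point gives how many protein-coding genes (log scale) have a given number of IPC RBPJ peaks nearest to one of their start sites. Nfib stands at the right end with 16 peaks, Nfia lies among 222 genes with 3, and Nfix and Nfic lie among 2491 genes with 1.

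Relative to sequence, the 4 genes were closer to each other than their counts. Nfia had 0.36 Mb of nearest sequence and 41.7 consensus peaks per Mb, Nfix 0.0773 Mb and 38.8, Nfib 0.807 Mb and 35.9, and Nfic 0.0661 Mb and 15.1. Over the nuclear genome there were 7.63 consensus peaks per Mb. These densities rest on only 3 peaks for Nfix and 1 for Nfic. For RGC RBPJ the density was 33.3 per Mb at Nfia, 25.9 at Nfix, 21.1 at Nfib and 0 at Nfic, against 5.17 over the genome. For RGC Notch it was 11.1 at Nfib and 2.78 at Nfia, against 1.36. For IPC RBPJ it was 19.8 at Nfib, 15.1 at Nfic, 12.9 at Nfix and 8.33 at Nfia, against 2.02. The values of Nfic and Nfix rest on 1 IPC RBPJ peak each. For IPC Notch it was 5.55 at Nfia and 2.48 at Nfib, against 0.791.

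Nfib (ENSMUSG00000008575) lies on the minus strand of chromosome 4 at chr4:82290173-82705750 and is 416.0 kb long. Most of its transcripts start between positions 82505308 and 82505779, called the main starts here. One protein-coding transcript starts far upstream, at 82705750 (the distal start), and 1 transcript without a coding sequence starts inside the gene, at 82499316. Of its 29 consensus peaks, 23 lay in introns, 2 over a start site, 1 over an exon and 3 beyond the 3′ end of the gene. The farthest of these 3, chr4:82096709-82099165, was called for RGC RBPJ and lay 400.0 kb from the nearest Nfib start. The next protein-coding start sites are those of Mpdz, at 1057.0 kb, and of Zdhhc21, at 145.0 kb, and these genes had 9 and 1 consensus peaks.

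The peaks of Nfib nearest to its starts did not cover the main starts. A consensus peak of 8326 bp, chr4:82493857-82502182 in cluster 7, covered the internal start and ended 3126 bp from the closest main start. It contained RGC RBPJ, RGC Notch and IPC RBPJ peaks and no IPC Notch peak. The IPC RBPJ list had a pair of separate peaks there, of 5086 and 372 bp. On the other side, a peak of 309 bp called for RGC Notch alone, chr4:82508884-82509192 in cluster 1, began 3105 bp upstream of the main starts. The other Nfib peak called in 3 lists, chr4:82511537-82515324 in cluster 4, began 5.76 kb upstream of them. In it, the IPC RBPJ peak (chr4:82511537-82512544) and the RGC Notch peak (chr4:82513545-82515255) did not touch, and a single RGC RBPJ peak (chr4:82511559-82515324) overlapped both.

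At the distal start of Nfib the calls were all from IPCs. The consensus peak chr4:82702139-82705796, in cluster 7, held a Notch peak of 3658 bp and an RBPJ peak of 2783 bp, both over the start site. The nearest RGC RBPJ peak, chr4:82689587-82693124, lay 12.6 kb from this start. The only other IPC Notch peak of Nfib, chr4:82302628-82305644, lay in an intron near the 3′ end, within an RGC RBPJ peak of 5971 bp. Neither IPC Notch peak of Nfib overlapped any of its 9 RGC Notch peaks, and the same held for the 2 and 1 of Nfia. Over all genes 23.6% (21.9 to 25.4) of IPC Notch peaks overlapped an RGC Notch peak and 13.0% of RGC Notch peaks overlapped one from IPCs. The intervals at Nfib were 0% to 65.8% for IPC Notch and 0% to 29.9% for RGC Notch peaks. At Nfia they were 0% to 65.8% and 0% to 79.3%. All hold the shares over all genes, so nothing is read from the missing overlap.

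Counts on either side of the main starts of Nfib differed by list, without a test. The main starts divide the gene into stretches of like length, one upstream as far as the distal start and one downstream as far as the 3′ end. Upstream there were 10 IPC RBPJ, 6 RGC RBPJ, 2 RGC Notch and 1 IPC Notch peaks. Downstream there were 4 IPC RBPJ, 10 RGC RBPJ, 7 RGC Notch and 1 IPC Notch peaks. Both upstream RGC Notch peaks were close to the main starts, at 3.1 and 7.77 kb, so none was called over the rest of the way to the distal start. Beyond the 3′ end there were 2 IPC RBPJ peaks and 1 RGC RBPJ peak. Within 50 kb of any Nfib start lay 11 of the 16 IPC RBPJ peaks, 8 of the 17 RGC RBPJ peaks and 4 of the 9 RGC Notch peaks. Shares within 50 kb were not taken over the whole lists, so these counts are a description only. The 29 consensus peaks spanned 609.0 kb with a median gap of 12.3 kb and covered 14.9% of it, and the 15 of Nfia spanned 343.0 kb with a gap of 12.6 kb and covered 12.1%.

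**Figure D3:**
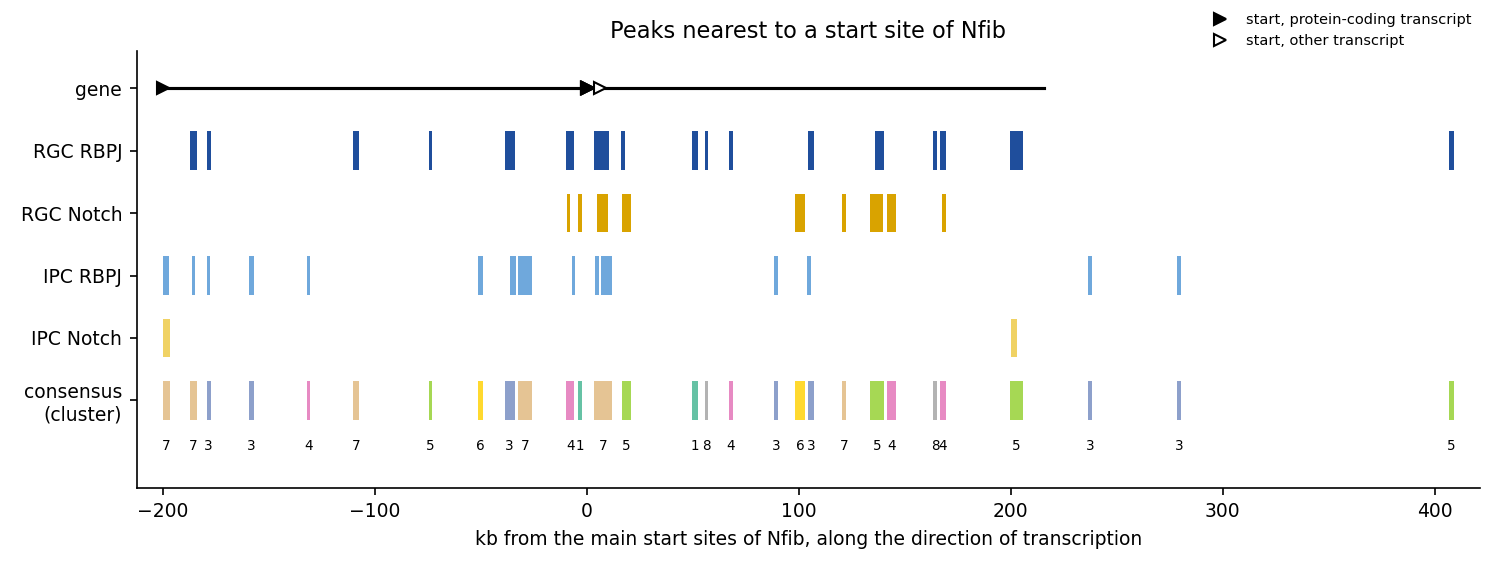
Each bar is a called peak of Nfib by distance in kb from its main start sites along the direction of transcription, with 1 row per list, consensus peaks coloured and numbered by cluster below, and the gene with its start sites above (bars of short peaks are widened to stay visible). RGC Notch peaks lie beside the main starts and downstream of them, and 10 of the 16 IPC RBPJ peaks lie upstream.

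The 16 IPC RBPJ peaks of Nfib were 319 to 6704 bp wide, with a median of 1428 bp, against 1398 bp over the whole list. They fell in 14 consensus peaks. From the distal start along the gene, the first was the peak over that start, chr4:82702990-82705772 in cluster 7. It was followed by chr4:82690572-82692013 in cluster 7 and chr4:82683305-82684917 in cluster 3, each inside an RGC RBPJ peak. Next came chr4:82662513-82665056 in cluster 3 and chr4:82636802-82637120 in cluster 4, both called in no other list.

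Nearer to the main starts lay chr4:82554846-82557130 in cluster 6, again called in no other list. A consensus peak in cluster 3 held a pair of IPC RBPJ peaks, chr4:82541044-82541444 and chr4:82539721-82540467, under 1 RGC RBPJ peak of 4732 bp. The widest IPC RBPJ peak, chr4:82531355-82538058, lay in cluster 7 and had no RGC call. The peak at chr4:82511537-82512544 in cluster 4 and the pair in the cluster 7 peak over the internal start were those described above.

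Downstream, chr4:82415693-82417336 in cluster 3 was called for IPC RBPJ alone, and chr4:82400515-82401358 in cluster 3 overlapped an RGC RBPJ peak. Beyond the 3′ end, chr4:82267615-82269027 and chr4:82225838-82227042 were both in cluster 3 and in no other list. Of the 16 peaks, 8 thus overlapped an RGC RBPJ peak. Over all genes 26.6% of IPC RBPJ peaks did. Read from the other list, 6 of the 17 RGC RBPJ peaks of Nfib overlapped an IPC RBPJ peak, against 10.1% over all genes. Nfib was chosen for its many IPC RBPJ peaks, which bears on both shares, so they are a description and nothing is read from them.

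Nfia (ENSMUSG00000028565) lies on the plus strand at chr4:97772734-98118874 and is 346.0 kb long. Its consensus peak chr4:97772184-97776942, in cluster 2, covered the outermost start, at 97772734, and ended 666 bp before the next start, at 97777608, from which on most Nfia transcripts begin. It contained RGC RBPJ, IPC RBPJ and IPC Notch peaks of 4736, 4447 and 3565 bp, and no RGC Notch peak. It was the only peak of the 4 genes with both an IPC Notch peak and an RGC RBPJ peak over a start site. Of the other 14 consensus peaks, 13 lay in introns and 1 over an exon.

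Apart from the start peak, most peaks nearest to Nfia were RGC RBPJ peaks, which 67.6% of all consensus peaks held. With the outermost starts only (4 RGC RBPJ and 6 IPC RBPJ peaks), the peaks in its introns were no longer counted to Nfia. In 10 of its 15 consensus peaks RGC RBPJ was the only list called, and 7 of these 10 were in cluster 5. They lay between chr4:97852109-97853293 and chr4:98101157-98103938 and were up to 5839 bp wide. The median width of the 12 RGC RBPJ peaks was 3172 bp, against 2059 bp over the list. Both other IPC RBPJ peaks differed in kind: chr4:97857343-97858210 lay within an RGC RBPJ peak in cluster 5, and chr4:98113465-98115515, over an exon near the 3′ end, was in cluster 3 and called in no other list. The single RGC Notch peak, chr4:97985897-97986922 in cluster 1, and the second IPC Notch peak, of 279 bp at chr4:98008707-98008985 in cluster 6, were likewise alone.

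The count of Nfia is cut by its neighbour. E130114P18Rik has a start site at 97778048, 0.214 kb from a start of Nfia, and 3 consensus peaks inside the body of Nfia were nearer to it. They were chr4:97780079-97780387 (IPC Notch, cluster 6), chr4:97805371-97806583 (RGC RBPJ, cluster 4) and chr4:97823362-97825436 (RGC RBPJ, cluster 6). With them the body of Nfia held 18 consensus peaks. Another peak assigned to E130114P18Rik, chr4:97604825-97610923 in cluster 6, was called in all 4 lists, which no consensus peak assigned to the 4 genes was. RefSeq places a start of Nfia farther upstream: its promoter there, chr4:97581693-97581992, lay 505 bp from a cluster 7 peak, chr4:97582497-97584917, called for RGC RBPJ and IPC RBPJ. With that start, this peak and the 4-list peak would lie inside Nfia. So would chr4:97628797-97630098, chr4:97660946-97662491 and chr4:97668578-97670724, called for IPC RBPJ alone. All were assigned to E130114P18Rik, so the counts of Nfia leave them out.

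Nfix (ENSMUSG00000001911) lies on the minus strand at chr8:84699876-84800344. Its IPC RBPJ peak, chr8:84769790-84774074 in cluster 3, was 4285 bp wide, covered the start of 1 protein-coding transcript at 84773396 and reached to 295 bp from that of another. It also overlapped 2 of the 4 promoters that RefSeq gives for Nfix. The outermost starts, at 84800024 to 84800344, were at least 10808 bp from any consensus peak. Both RGC RBPJ peaks were short and lay near the 3′ end, chr8:84713788-84714839 in cluster 5, over the start of a transcript with a retained intron, and chr8:84708749-84708987 in cluster 2, 0.531 kb from another noncoding start. A further IPC RBPJ peak inside the gene, chr8:84731466-84734182 in cluster 3, was nearer to the start of G430095P16Rik. On either side the neighbours Lyl1 and Dand5 had 0 and 1 consensus peaks.

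Nfic (ENSMUSG00000055053), on the minus strand at chr10:81396186-81455635, had 1 peak. It was an IPC RBPJ peak of 1513 bp in cluster 3, chr10:81406044-81407556, over an exon and 85 bp from the start of an internal protein-coding transcript at 81407641. The starts of its other protein-coding transcripts were between 17250 and 23449 bp from any consensus peak. Neither Nfic nor Nfix had a Notch peak in either cell type. The neighbours Smim24 and Celf5 had 0 and 1 consensus peaks.

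**Figure D4:**
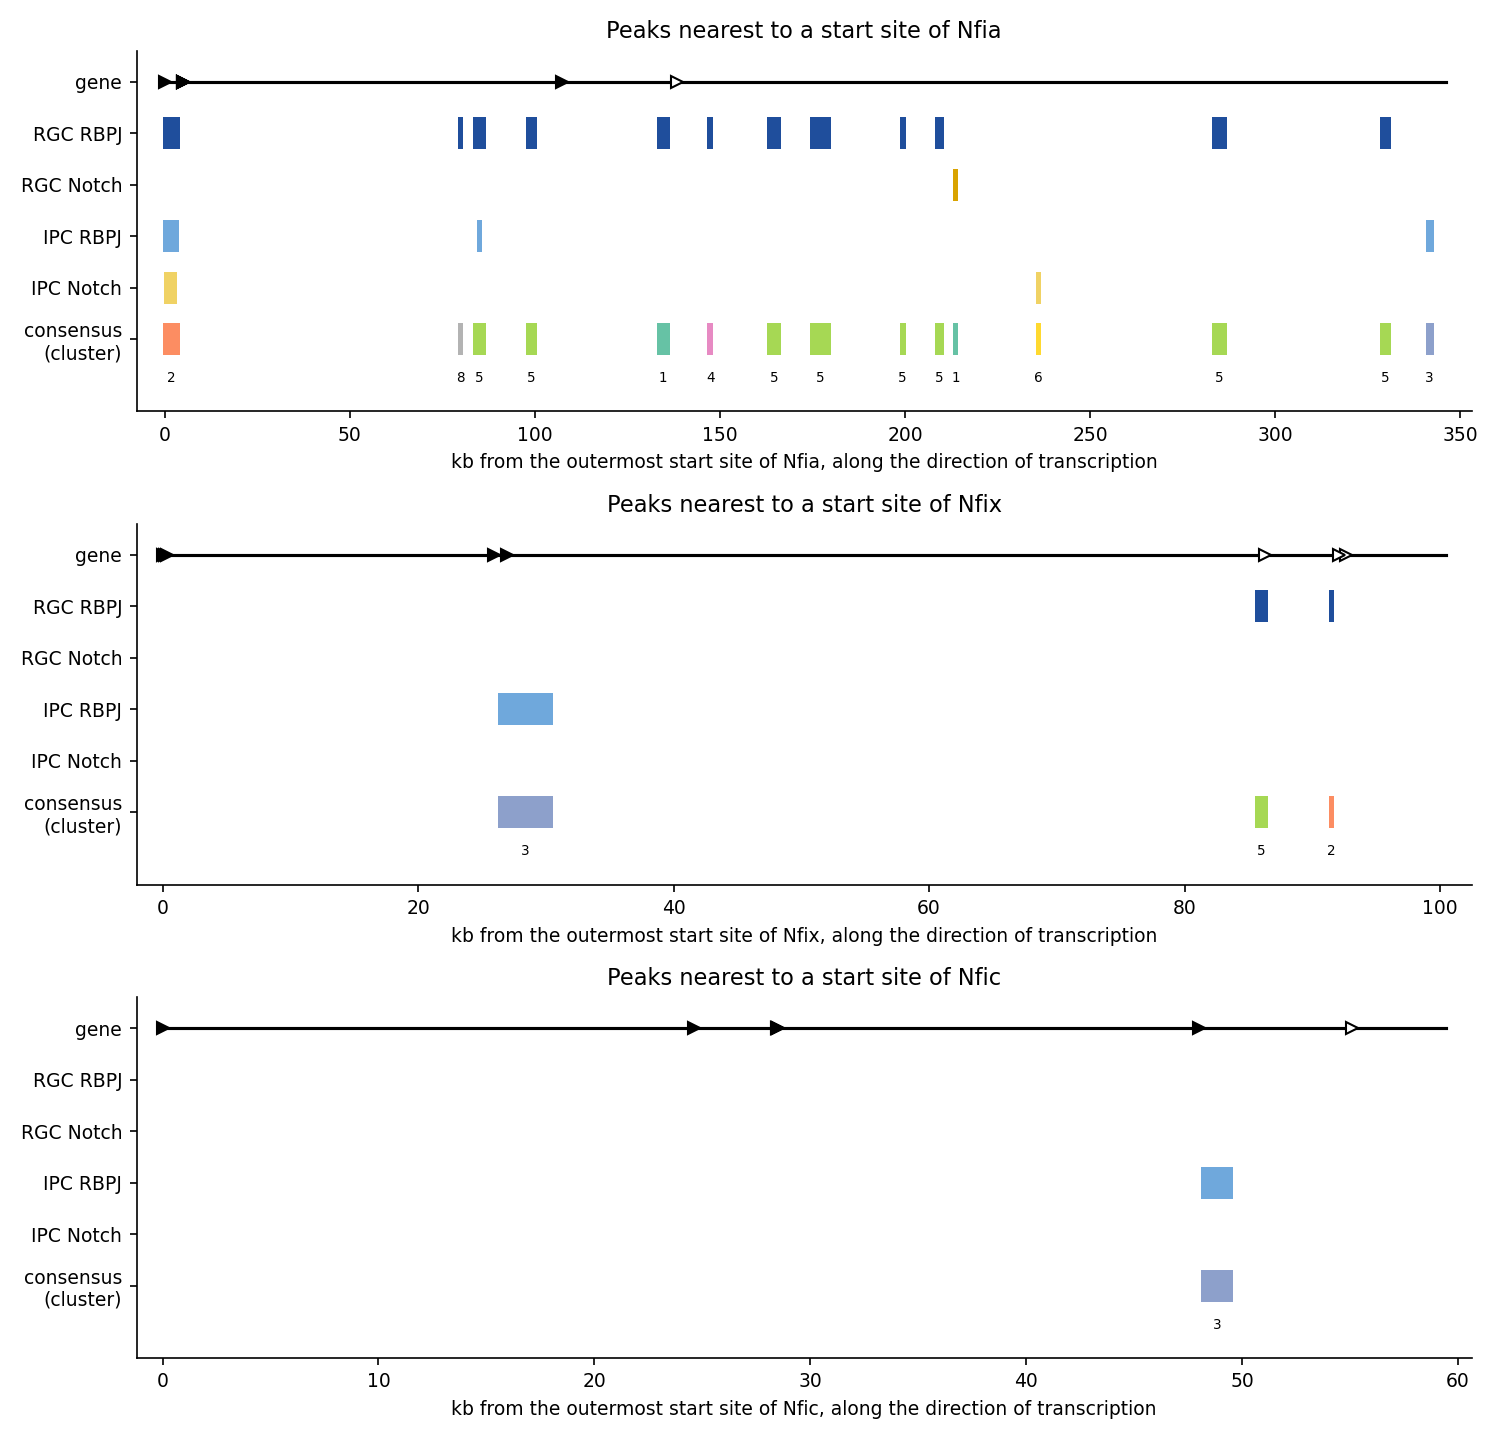
Called peaks of Nfia, Nfix and Nfic by distance in kb from the outermost start site of each gene, along the direction of transcription, drawn as for Nfib (filled arrows are starts of protein-coding transcripts, open arrows of other transcripts, and each panel has its own scale). The Nfia panel shows 12 RGC RBPJ peaks along the gene and 1 position at the start with calls of 3 lists.

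A consensus peak carries the number of 1 of 8 k-means clusters, which the study formed from binding intensities and not from the calls. Over all nuclear consensus peaks, cluster 3 was nearly all IPC RBPJ (96.7% held such a peak) and clusters 5 and 8 nearly all RGC RBPJ (97.6% and 99.4%). Cluster 1 was mainly RGC Notch (70.8%), cluster 4 RGC RBPJ (81.0%) with RGC Notch (41.7%), cluster 7 RGC RBPJ (73.7%) with IPC RBPJ (52.9%), and cluster 6 RGC RBPJ (64.2%) with IPC Notch (48.3%). Cluster 2 held all 4 lists, at 32.3% to 78.9%.

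The most frequent cluster was cluster 3 at Nfib, with 7 peaks against 6 in cluster 7, and cluster 5 at Nfia. Cluster 3 is nearly all IPC RBPJ, the list on which Nfib was chosen, so nothing is read from its share at Nfib. Of the 29 peaks of Nfib, 7 were in cluster 3, 24.1% (12.2 to 42.1) against 16.3% of all consensus peaks, and 6 in cluster 7, 20.7% (9.85 to 38.4) against 11.0%. Clusters 4 and 5 had 5 each, 17.2% (7.6 to 34.5), against 9.79% and 22.5%. Clusters 1, 6 and 8 had 2 each, 6.9% (1.91 to 22.0), against 10.5%, 10.8% and 14.4%, and cluster 2 had 0 against 4.76%. Each of these intervals holds the share over all peaks. Of the 15 peaks of Nfia, 8 were in cluster 5, 53.3% (30.1 to 75.2), an interval that lies above the 22.5% of all peaks. The share was not tested, and neighbouring peaks of 1 gene are not replicates. Cluster 5 is nearly all RGC RBPJ, so the share largely restates the RGC RBPJ count of Nfia. With the outermost starts only, these intron peaks were no longer counted to Nfia. Nfia had 2 peaks in cluster 1, 1 each in clusters 2, 3, 4, 6 and 8, and 0 in cluster 7. Nfic had its peak in cluster 3, and Nfix had 1 each in clusters 2, 3 and 5. Each of the 4 genes thus had a peak in cluster 3, but at Nfia, Nfix and Nfic this rests on 1 peak. Over the family 10 of 48 peaks were in cluster 3, 20.8% (11.7 to 34.3), an interval that holds the 16.3% of all peaks. With the outermost starts only, Nfic had 0 peaks.

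**Figure D5:**
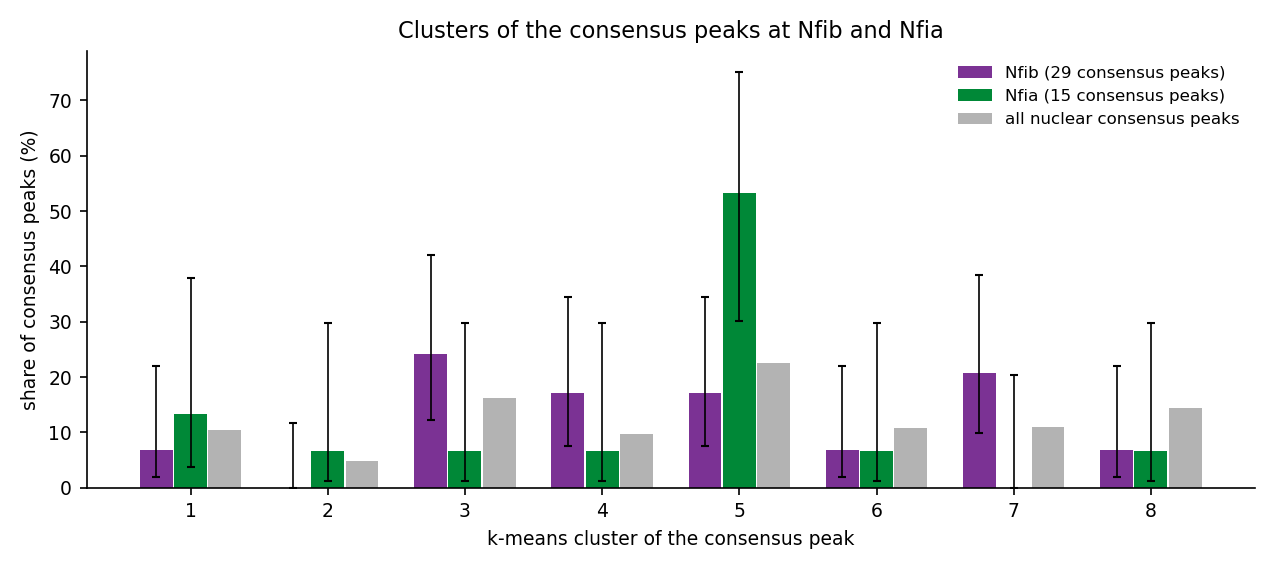
Bars give the share of consensus peaks (%) in each k-means cluster for Nfib, for Nfia and for all nuclear consensus peaks, with Wilson 95% intervals for both genes. The bar of Nfia in cluster 5 (53.3%) is the only one whose interval does not hold the share of all peaks.

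By list, 14 of the 29 Nfib consensus peaks held an IPC RBPJ peak, 48.3% (31.4 to 65.6), against 26.2% of all consensus peaks. RGC RBPJ was called in 58.6% (40.7 to 74.5) against 67.6%, RGC Notch in 31.0% (17.3 to 49.2) against 17.7%, and IPC Notch in 6.9% (1.91 to 22.0) against 10.1%. For Nfia, RGC RBPJ was called in 80.0% (54.8 to 93.0), IPC RBPJ in 3 of 15 (7.05% to 45.2%), IPC Notch in 13.3% (3.74 to 37.9) and RGC Notch in 6.67% (1.19 to 29.8). Since the family was picked for the IPC RBPJ count of Nfib, nothing is read from that share, nor from those that follow, which hold the same calls. Peaks with lists of both cell types were 7 of 29 at Nfib (24.1%) and 2 of 15 at Nfia (13.3%), against 11.5% of all consensus peaks. Calls in a single list made up 18 of 29 at Nfib (62.1%) and 13 of 15 at Nfia (86.7%), against 82.9% of all consensus peaks.

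Some peaks lay in clusters in which their list was not the most frequent. At Nfib the peak chr4:82383357-82385203 was called for RGC Notch alone and lay in cluster 7, where 7.86% of all peaks held an RGC Notch peak, and the peak chr4:82402737-82407618, also RGC Notch alone, lay in cluster 6, where 19.7% did. The 319 bp peak chr4:82636802-82637120 was called for IPC RBPJ alone and lay in cluster 4, where 5.59% of all peaks held an IPC RBPJ peak. At Nfia, the RGC RBPJ peak chr4:97905629-97909212, 1.82 kb from a start site, lay in cluster 1, where 38.6% of all peaks held an RGC RBPJ peak.

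The sequence under the peaks was searched for fixed words on both strands. TTCCCA occurred 148 times in the 48 consensus peaks, 1.06 words per kb (exact Poisson 95% interval 0.899 to 1.25), against 1.17 per kb in all consensus peaks. It was present in 41 of the 48 peaks, 85.4%, against 82.9% of all peaks. Per gene there were 1.28 words per kb at Nfia, 0.97 at Nfib, 1.98 at Nfic and 0.717 at Nfix. The value of Nfic rests on 3 words and that of Nfix on 4. Of the peaks printed above, the one over the distal start of Nfib held 5 words in its 3658 bp and that over the start of Nfia 6 in 4759 bp. The widest IPC RBPJ peak of Nfib held 9 in 6704 bp, and the peak over the start of Nfix 1 in 4285 bp. None of the 6 promoters that RefSeq gives for Nfia, Nfix and Nfic held the word, which 25.6% of 32851 promoters of that length did.

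TTGGCA, the half-site of the family's own proteins, occurred 0.668 times per kb in the 48 peaks against 0.595 per kb in all consensus peaks, and in 83.3% of them against 65.0%. TAATTA, a core bound by many homeodomain proteins, occurred 0.345 times per kb against 0.358. Median widths were 2587 bp at Nfib, 2782 bp at Nfia, 1513 bp at Nfic and 1052 bp at Nfix against 1890 bp over all consensus peaks, which bears on shares of peaks with a word and not on words per kb. A head-to-head pair of TGGGAA and TTCCCA with 15 to 17 bases between them was in 0 of the 48 peaks and in 0.231% of all peaks. The split palindrome, TTGGC and GCCAA with 5 bases between them, was in 0.264% of all peaks and in 1 of the 48. That 1 is the Nfia start peak, and the stretch that follows, on the plus strand, shows it in capitals at 97776506 to 97776520, within the RGC RBPJ and IPC RBPJ peaks.
Nfia palindrome chr4:97776466-97776560: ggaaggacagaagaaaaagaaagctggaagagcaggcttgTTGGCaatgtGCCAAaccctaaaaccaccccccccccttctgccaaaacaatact

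Dam methylates GATC only, so a peak without that word has its nearest sites beyond its edges. Of the 16 IPC RBPJ peaks of Nfib, 2 had no GATC, 12.5% (3.5 to 36.0), and 1 still had none when each end was extended by 200 bp, against 11.5% of all IPC RBPJ peaks so extended. Over the IPC RBPJ list 33.6% of peaks had none, while in RGCs the shares were 1.32% for RBPJ and 0.702% for Notch. Of all consensus peaks in cluster 3, 51.3% had none, as did 3 of the 10 cluster 3 peaks of the family. The GATC-free Nfib peaks were chr4:82636802-82637120, with a GATC 4 bp beyond either edge, and chr4:82662513-82665056, with the next ones 435 and 439 bp away. The IPC RBPJ peak of Nfic and the one near the 3′ end of Nfia were also free of GATC, over 1513 and 2051 bp. All 31 RGC RBPJ peaks and all 10 RGC Notch peaks of the family held at least 1. GATC density in the IPC RBPJ peaks was 1.87 per kb at Nfib and 1.54 over the list, and in the RGC RBPJ peaks 3.09 and 3.13.

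A list of 16 genes that act with the family or are described as its targets in neural stem cells and astrocytes was counted in the same way. RGC RBPJ was called at 13 of them, RGC Notch at 10, IPC RBPJ at 8 and IPC Notch at 10, against 30.9%, 11.5%, 16.1% and 6.92% of all protein-coding genes. Several of these genes have far more nearest sequence than the median of 0.0451 Mb, among them Sox9 with 1.25 Mb, Pou3f2 with 1.07 Mb and Zbtb20 with 0.979 Mb, and the counts are not corrected for it. Sox9, a stem cell and glial factor that acts with Nfia, had 13, 4, 6 and 8 peaks in the order RGC RBPJ, RGC Notch, IPC RBPJ and IPC Notch. Zbtb20, a repressor that drives astrocyte formation, had 13, 7, 4 and 4 in this order. Hes1, the Notch-induced repressor, had 12, 2, 2 and 4. With 2 IPC Notch peaks Nfib had fewer than Sox9, Zbtb20, Hes1 or Slc1a3, but more than the median of 1 over the 16 genes. The larger IPC RBPJ count of Nfib was fixed by the way the family was chosen, so nothing is read from it.

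Among the others, Slc1a3, the glial glutamate transporter, had 8, 4, 3 and 3 peaks and Fabp7, the fatty acid binding protein of radial glia, 1, 1, 1 and 2. Pou3f2, a neural POU factor, had 7, 4, 2 and 1. Apcdd1, a Wnt inhibitor, had 5, 0, 3 and 0, and Atf3, a stress-induced factor, 1, 0, 1 and 0. Insc, which orients the spindle of dividing progenitors, had 10, 1, 0 and 2. The remaining 7 genes had at most 4 consensus peaks each and none for IPC RBPJ.

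Similarity to other genes was measured as the cosine between counts of consensus peaks over the 8 clusters, among the 276 genes with at least 10 consensus peaks. Closest to Nfib were Cdh4, the gene of R-cadherin, with a cosine of 0.972 and 22 peaks, Zfp521, a zinc finger gene, with 0.954 and 12, and Klhl29, with 0.948 and 14. Closest to Nfia were Tox2, an HMG-box gene, with 0.952 and 10 peaks, Pabpc6, with 0.937 and 11, and Fars2, with 0.908 and 10. Nfix and Nfic had too few peaks to be compared, and the cosine between Nfib and Nfia was 0.579. No typical cosine between genes was taken, so whether that value is low is not known.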

How the data were processed

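Targeted DamID of RBPJ and Notch in mouse RGCs and IPCs was studied through the positions of called peaks. The authors binned reads mapped to mm10 into GATC fragments, ran Macs2 in broad mode on each fusion sample against each Dam-only sample, and retained peaks that passed an FDR filter in every such pairing. They deposited 4 peak lists and 1 file of merged consensus peaks with k-means cluster numbers. The deposited values are start and end positions in bp, with 0 columns of single samples, so depth is unknown and no test was made. The remaining samples of the series were not used here.

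Peaks on 21 nuclear chromosomes were assigned to the nearest start site of any transcript of a protein-coding gene (GENCODE M21, the same build), measured from the edge of the peak. Overlap was counted from 1 bp, and positions are printed counted from 1. The sequence nearest to a gene was split from its neighbours midway between start sites. Tables were made with pandas 2.3.3 and numpy 2.4.6 in Python 3.11.15, intervals with scipy 1.17.1 and plots with matplotlib 3.10.9. RefSeq promoters are of GRCm38.p6. Of the 4 genes, 3 were matched in that table. Nearest starts, word counts and intervals were checked on simulated places and sequence.

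The members and lists were chosen with earlier results of these data known. Genes and peaks named in the text follow a fixed rule: the 4 members, their neighbours, peaks over or nearest to start sites or with 3 or 4 lists, each IPC RBPJ peak of Nfib, the 16 partners and targets (with values for those called for IPC RBPJ or in 3 or more lists) and the 3 genes closest in cluster counts to Nfib and to Nfia. Other peaks were named after their values were seen. Alternatives were other start sites, distance limits, widths, overlaps and words, and, chosen after seeing the data, starts of protein-coding transcripts only and assignment by gene body.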

Additional observations from a re-analysis of the deposited data

How the results depend on the processing

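Fits that leave out a replicate or add a replicate block were not run, since the lists are pooled over samples. No paired analysis was possible because the lists hold no value of a single sample.

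The assignment of peaks to genes was what moved counts most. When start sites of every annotated gene were used, most Nfib peaks had another gene as the nearest (13 of them n-R5s188). Nfib then had 3 consensus peaks, with 2 RGC RBPJ, 2 RGC Notch, 3 IPC RBPJ and 1 IPC Notch peaks. Its share in cluster 3 then became 0% and its rank by IPC RBPJ peaks 69. With only the outermost start of each gene, Nfia had 8 consensus peaks (4 RGC RBPJ, 2 RGC Notch and 6 IPC RBPJ peaks). Nfix had 1 (0 RGC RBPJ peaks) and Nfic 0 (0 IPC RBPJ peaks). IPC RBPJ then outnumbered RGC RBPJ at Nfia, but over largely other peaks. The peaks in the introns of Nfia, all those in cluster 5 among them, were then nearer to the start of a neighbour, mostly E130114P18Rik, than to that of Nfia. Within 100 kb of a start, Nfib had 5 RGC Notch peaks and 1 IPC Notch peak. With peaks of at least 1000 bp, Nfia had 1 IPC Notch peak and Nfix 1 RGC RBPJ peak. Starts of protein-coding transcripts only, an alternative chosen after seeing the data, gave Nfix 1 consensus peak and 0 RGC RBPJ peaks. Per Mb of nearest sequence, Nfib ranked 9 by IPC RBPJ peaks. The longer word TTCCCAC occurred 0.251 times per kb, against 0.27 in all consensus peaks.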
